A study of Neurospora crassa with 22 samples.

Results

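The GEL transcripts of Neurospora crassa encode a small family of β-1,3-glucanosyltransferases, and their association with GUL-1 was followed across strain, fraction and drug treatment. The family was taken by name as 5 of the 10592 features in the count table, NCU08909 (gel-3), NCU06781 (no symbol in the annotation), NCU07253 (gel-4), NCU06850 (gel-5) and NCU01162 (gel-1). All 5 were counted, and all 5 were among the 7114 features that passed the filter on low counts.

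The libraries were made from hyphal RNA, either bound to GFP beads (pull-downs) or total (inputs). In GUL-1-GFP the native gul-1 is deleted and a gul-1-sgfp fusion is expressed from the ccg-1 promoter at his-3, so the fusion is not under its own promoter, and the wild-type carries no tag and gives the background of the beads. Each strain was grown in Vs medium (Vogel's minimal medium with sucrose) and, for its last hour, either received Nikkomycin Z at 10-5 M or did not (standard medium). Every one of the 8 groups held 3 libraries, apart from the GUL-1-GFP inputs with 2 in each medium. The GUL-1-GFP inputs without drug have titles with a pull-down code but a fraction label of total RNA, and the label was followed. The paper mentions 2 biological replicates, beside 3 replicates per sample type. The sources used here do not say which libraries of a group came from separate cultures, so p-values measure the spread between these libraries.

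GEL enzymes are anchored to the plasma membrane by a lipid and cut and rejoin chains of β-1,3-glucan, the main load-bearing polymer of the fungal cell wall, which lengthens the chains as the hypha grows. GUL-1 is an RNA-binding protein related to yeast Ssd1, a protein known for binding mRNAs of cell wall enzymes. Nikkomycin Z blocks chitin synthesis, the other structural polymer of the wall.

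Counts on protein-coding genes, which set the precision of all values below, numbered 900166 to 5200733 for GUL-1-GFP pull-downs, against 257726 to 1171431 for wild-type pull-downs. The GUL-1-GFP inputs held 30660 to 48884, and the wild-type inputs 59 to 430811. The tagged gene gul-1 (NCU01197) had 7771 to 46184 counts in the GUL-1-GFP pull-downs, against 33 to 922 in the wild-type pull-downs. The inputs differed already, with means of 114 against 1.75 CPM with Nikkomycin Z and 78.2 against 3.46 CPM in standard medium. Of 10000 protein-coding counts gul-1 averaged 91.8 in GUL-1-GFP pull-downs and 112 in their inputs with Nikkomycin Z. In standard medium these means were 71.0 and 77.4, so the counts of gul-1 are no check of the pull-down. Of the 22 libraries 3 stood apart, and they were kept in the main model. Replicate 3 of the wild-type input in standard medium held the 59 protein-coding counts. Replicate 1 of the GUL-1-GFP pull-down in standard medium had 2105 counts of eas (NCU08457), the hydrophobin of conidia and aerial hyphae, while the other 5 GUL-1-GFP pull-downs had 3 to 51. Replicate 2 of the wild-type pull-down in standard medium had 9 counts of eas, while the other 5 wild-type pull-downs had 292 to 2731. Of 4 genes that mark growing cells (act, bml, gpd-1 and tef-1), all 4 were counted in each of the 12 pull-downs. Inputs of standard medium differed in the same way. A list of 5 genes of conidia and aerial hyphae, eas among them, summed to 25.0 CPM in replicate 1 of the GUL-1-GFP input and to 0 to 2.90 CPM in the other 3 GUL-1-GFP inputs. It summed to 1.36 CPM, with eas at 0, in replicate 2 of the wild-type input, against 54.1 CPM in replicate 1 of that group. These 2 inputs were left out singly, and the main log2FC that involve standard medium are given also without the 3 libraries above.

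The question put to the pull-downs was which of the GEL transcripts were retained with GUL-1-GFP beyond what the beads kept from the non-tagged strain. In GUL-1-GFP pull-downs 3 of 5 were higher with Nikkomycin Z and 2 of 5 in standard medium, and 0 were lower. With the libraries of the comparison fitted alone 4 of 5 were called with Nikkomycin Z and 0 of 5 in standard medium, and with library sizes set to protein-coding counts NCU06781 alone was called higher, with Nikkomycin Z. gel-3 and NCU06781 were higher in both media, gel-4 with Nikkomycin Z alone, and gel-1 in neither. Of all 7114 features, 7.11% were called higher and 5.31% lower with Nikkomycin Z, and 2.59% higher and 0% lower in standard medium. These shares are from the main model of all libraries, and those of the other settings are not given here. Calls were made with edgeR's quasi-likelihood test at a Benjamini-Hochberg adjusted p under 0.05.

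gel-3 was the most abundant of the family in each of the 21 libraries that contained any of it. With Nikkomycin Z it had 540, 321 and 424 CPM in GUL-1-GFP pull-downs (counts scaled to library size by TMM, which sets sizes so that most features match), against 67.9, 75.5 and 61.3 CPM in the wild-type pull-downs. In standard medium the values were 149, 244 and 339 CPM in GUL-1-GFP, against 40.2, 57.5 and 35.1 CPM in the wild-type. The strains did not overlap in either medium, as was the case for 4 of 5 members with Nikkomycin Z and 3 of 5 in standard medium, beside 25.7 and 9.42% of all features. The log2FC of GUL-1-GFP over wild-type was 2.65 ± 0.60 (SE) with Nikkomycin Z and 2.46 ± 0.60 in standard medium, with adjusted p of 0.0044 and 0.0148 in edgeR's quasi-likelihood test. Without the libraries that stood apart the value for standard medium was 2.99. The pull-downs among them stood apart by eas and were the lowest GUL-1-GFP and the highest wild-type library of that medium. The rise thus followed from the choice of libraries.

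NCU06781 showed the widest difference between the strains. With Nikkomycin Z it had 175, 86.7 and 137 CPM in GUL-1-GFP pull-downs, against 5.57, 5.00 and 4.21 CPM in the wild-type pull-downs. In standard medium it had 45.1, 74.8 and 111 CPM in GUL-1-GFP, against 1.96, 19.5 and 5.25 CPM in the wild-type. The value of 19.5 CPM belongs to replicate 2 of the wild-type, one of the libraries that stood apart, and even that library stayed below every GUL-1-GFP pull-down. The log2FC was 4.75 ± 0.77 with Nikkomycin Z (adjusted p = 1.19e-04) and 3.11 ± 0.71 in standard medium (adjusted p = 0.00964, both by edgeR's quasi-likelihood test). In standard medium it was 4.72 without the 3 libraries that stood apart, which took out the lowest GUL-1-GFP and the highest wild-type pull-down. This rise, too, followed from the choice of libraries.

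gel-4 had 42.0, 27.8 and 38.3 CPM in GUL-1-GFP pull-downs with Nikkomycin Z, against 11.3, 11.2 and 10.6 CPM in the wild-type. In standard medium it had 11.3, 20.8 and 25.1 CPM in GUL-1-GFP, against 3.98, 12.9 and 6.86 CPM in the wild-type, so that the lowest GUL-1-GFP library lay below the highest wild-type library. The log2FC was 1.71 ± 0.56 with Nikkomycin Z (adjusted p = 0.0457) and 1.27 ± 0.56 in standard medium (adjusted p = 0.493, edgeR's quasi-likelihood test). Without the 3 libraries that stood apart gel-4 was called in standard medium as well, with a log2FC of 2.14 (adjusted p = 0.0449, edgeR's quasi-likelihood test). The pull-downs left out there were the overlapping pair, the lowest GUL-1-GFP and the highest wild-type library, so this call is no separate support.

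gel-5 was scarce. It had 3.34, 1.61 and 2.34 CPM in GUL-1-GFP pull-downs with Nikkomycin Z, against 0.32, 0.87 and 0.17 CPM in the wild-type, and 4.91, 3.02 and 2.41 CPM in GUL-1-GFP in standard medium, against 0.28, 1.11 and 0.53 CPM in the wild-type. On this TMM scale all 6 GUL-1-GFP pull-downs were above all 6 wild-type pull-downs, whereas relative to protein-coding counts the strains overlapped. The log2FC was 2.48 ± 0.85 with Nikkomycin Z and 2.41 ± 0.82 in standard medium, and neither passed edgeR's quasi-likelihood test (adjusted p = 0.0551 and 0.182). Without the libraries that stood apart the value for standard medium was 2.74 and did not pass either.

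gel-1 did not follow the other members. It had 0.48, 0.64 and 1.39 CPM in GUL-1-GFP pull-downs with Nikkomycin Z, against 1.19, 1.98 and 1.92 CPM in the wild-type. In standard medium it had 3.37, 0.81 and 0.51 CPM in GUL-1-GFP, against 2.52, 0.32 and 1.45 CPM in the wild-type. The groups overlapped in both media. The log2FC of -1.005 ± 0.81 with Nikkomycin Z and 0.17 ± 0.79 in standard medium did not pass edgeR's quasi-likelihood test (adjusted p = 0.445 and 1).

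**Figure D1:**
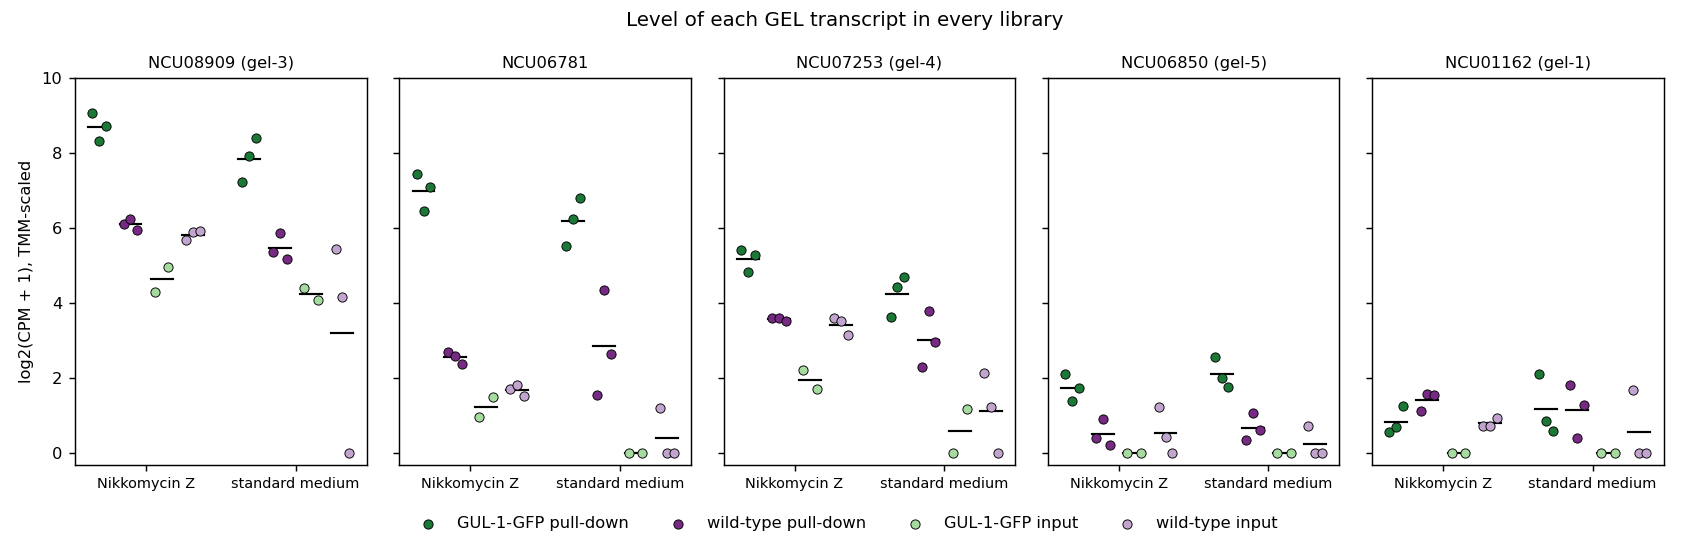
Level of each GEL transcript in every library, as log2(CPM + 1) scaled by TMM, with 1 point per library, a line at each group's mean, and the groups coloured by strain and fraction, Nikkomycin Z at the left and standard medium at the right of each panel. The GUL-1-GFP pull-downs lie above the wild-type pull-downs for gel-3, NCU06781 and gel-5, overlap them for gel-4 in standard medium, and overlap them for gel-1 in both media.

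When the pull-downs of both media were averaged in the same model, a comparison added after the values were seen, 4 of 5 members were higher in GUL-1-GFP, beside 6.97% of all features higher and 3.13% lower. The log2FC was 3.93 ± 0.52 for NCU06781, 2.56 ± 0.42 for gel-3, 2.45 ± 0.59 for gel-5 and 1.49 ± 0.40 for gel-4, with adjusted p of 3.43e-06, 7.81e-05, 0.00714 and 0.0136 in edgeR's quasi-likelihood test. For gel-1 it was -0.42 ± 0.56 (adjusted p = 0.710). The median over the family was 2.45, and the median over all features was -0.10. In this order NCU06781 lay above 98.7% of all features and gel-1 above 36.9%. The 3 members that did not overlap on the TMM scale over 6 against 6 pull-downs stand beside 5.75% of all features for which the same was true.

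Single libraries decided several of these calls. In standard medium no member was called without replicate 3 of the GUL-1-GFP pull-downs, without replicate 1 or without replicate 3 of the wild-type pull-downs, and NCU06781 alone was called without replicate 1 or 3 of the GUL-1-GFP or replicate 3 of the wild-type pull-downs with Nikkomycin Z, which enter through the shared estimate of spread. Over all single libraries left out, the adjusted p in standard medium by edgeR's quasi-likelihood test was 9.44e-04 to 0.145 for NCU06781 and 0.00145 to 0.245 for gel-3. With Nikkomycin Z it was 1.92e-05 to 0.00393 for NCU06781 and 5.04e-04 to 0.0485 for gel-3, and 0.0183 to 0.150 for gel-4. With both media averaged, gel-4 was not called with protein-coding library sizes, nor was gel-5, and with TMM gel-4 was not called without replicate 1 of the GUL-1-GFP pull-downs with Nikkomycin Z, or without replicate 3 of either strain in standard medium.

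**Figure D2:**
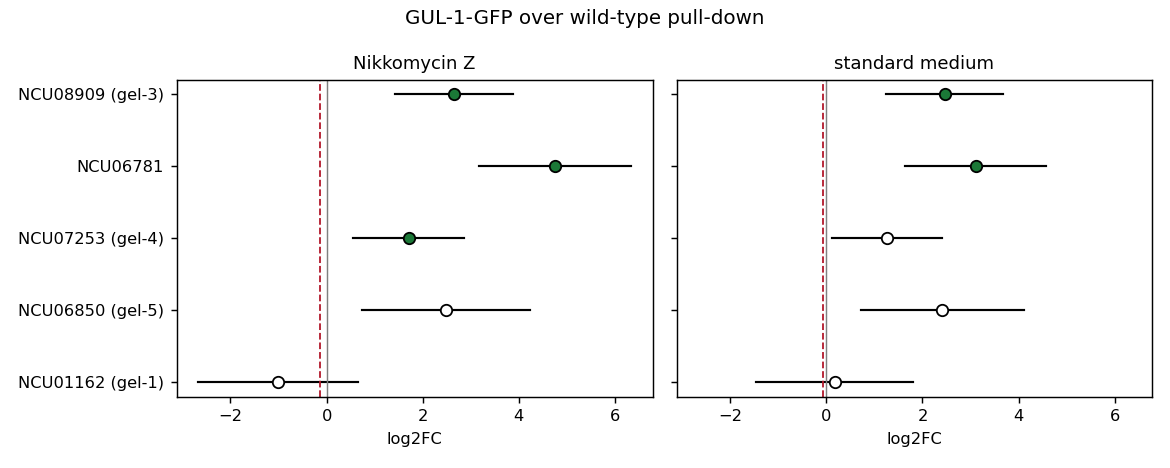
log2FC of GUL-1-GFP over wild-type pull-down for each GEL transcript, with Nikkomycin Z at the left and in standard medium at the right. Bars are 95% confidence intervals from the edgeR model, filled points passed an adjusted p under 0.05, and the dashed line is the median of all 7114 features, -0.13 with Nikkomycin Z and -0.07 in standard medium.

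The size of these differences depended on what the counts were scaled to (the share of counts on protein-coding genes was 4.43 to 21.5% in GUL-1-GFP pull-downs and 1.23 to 4.13% in wild-type pull-downs). Relative to all protein-coding counts and without TMM, the median of all features moved to -2.12 with Nikkomycin Z and -1.58 in standard medium. On that scale the log2FC of gel-3 was 0.61 and 0.85, and that of NCU06781 was 2.69 and 1.56, in the same order of media. Of these, NCU06781 with Nikkomycin Z passed edgeR's quasi-likelihood test (adjusted p = 0.00149, against 0.0558 in standard medium), and gel-3 did not (adjusted p = 0.169 and 0.0889). gel-4 turned to -0.32 and -0.31. gel-1 was lower, with a log2FC of -2.996, with Nikkomycin Z (adjusted p = 0.00927) and had -1.24 in standard medium (adjusted p = 0.238). Between the pull-downs of the strains, though not for pull-down over input, the choice of library size moved all features by nearly the same amount. The distance of a member from the median of all features is there set by construction and is no test of the difference. For gel-3 with Nikkomycin Z that distance was 2.78 on the TMM scale and 2.73 on the protein-coding scale, and for NCU06781 it was 4.88 and 4.82.

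Of 10000 protein-coding counts, the 5 GEL transcripts together took 88.0, 78.9 and 81.9 in GUL-1-GFP pull-downs with Nikkomycin Z, against 50.0, 54.4 and 43.4 in wild-type pull-downs. In standard medium they took 56.6, 65.8 and 85.1, against 33.9, 52.0 and 29.2. The lowest GUL-1-GFP pull-down had 56.6 and the highest wild-type pull-down 54.4, so that the strains did not overlap on this scale. The share of all features without overlap on it was not counted. The 56.6 is from replicate 1 of standard medium, which stood apart, and the next lowest GUL-1-GFP pull-down had 65.8. gel-3 made up 69.8 to 73.3% of the family's counts in GUL-1-GFP, against 63.0 to 82.2% in the wild-type pull-downs. The sum was carried by gel-3 and NCU06781, with means of 59.3 and 18.2 with Nikkomycin Z, against 38.9 and 2.82 in the wild-type. In that medium gel-4 was lower in GUL-1-GFP, at 5.03 against 6.29, as was gel-1, at 0.120 against 0.965. gel-5 stood at 0.332 against 0.261.

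The make-up of the family was compared within libraries, as each member's counts over those of gel-3, a measure that no scaling of the library can change. It was chosen after the values were seen. NCU06781 stood at 0.325, 0.270 and 0.324 of gel-3 in the GUL-1-GFP pull-downs with Nikkomycin Z, against 0.0821, 0.0663 and 0.0688 in the wild-type. In standard medium it stood at 0.302, 0.306 and 0.327 of gel-3 in GUL-1-GFP, against 0.0487, 0.3396 and 0.150 in the wild-type. All 6 GUL-1-GFP pull-downs thus gave nearly the same proportion, whereas the wild-type pull-downs of standard medium were spread over a wide range. The value of 0.3396 is again that of replicate 2. gul-1 was at 3.98, 22.5 and 13.2 CPM in the same 3 wild-type pull-downs, and at 1.92 to 4.03 CPM in those with Nikkomycin Z, and the part of these levels in the ratios was not tested. In the wild-type inputs with 10 or more counts of NCU06781 the proportion was between 0.0308 and 0.0456.

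On the log2 scale the ratio of NCU06781 to gel-3 was -1.70 ± 0.10 in GUL-1-GFP pull-downs, against -3.34 ± 1.02 in wild-type pull-downs (SD, n = 6 each), a difference of 1.64 averaged over the media. An exact permutation test within media (two-sided, smallest possible p 0.005) gave p = 0.02, adjusted to 0.0267 over the 4 ratios. Within the media the difference was 2.08 with Nikkomycin Z (p = 0.10, exact permutation, the smallest that 3 against 3 allow) and 1.202 in standard medium (p = 0.40). Without both pull-down libraries that stood apart it was 1.99.

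gel-4 moved the other way in this measure. Its counts were 0.0740 to 0.0905 of those of gel-3 in the 6 GUL-1-GFP pull-downs, against 0.0989 to 0.223 in the 6 wild-type pull-downs, with no overlap. The log2 ratio differed by -0.997 (exact permutation p = 0.005, adjusted 0.02). Ratios to gel-3 that were below the wild-type in all 6 GUL-1-GFP pull-downs were found for 39.3% of all features, so gel-4 shared this with a large part of the transcriptome. The ratio of gel-1 to gel-3 differed by -3.04 (exact permutation p = 0.01, adjusted 0.02) and that of gel-5 by 0.12 (p = 0.835). Without the 2 pull-down libraries that stood apart the difference of gel-1 was -4.13. With both media averaged, gel-3 itself lay 2.66 above the median log2FC of all features, so a feature at the median falls by about that much. The fall of gel-4 was smaller, and these p-values do not set gel-4 or gel-1 apart from the bulk of the features.

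**Figure D3:**
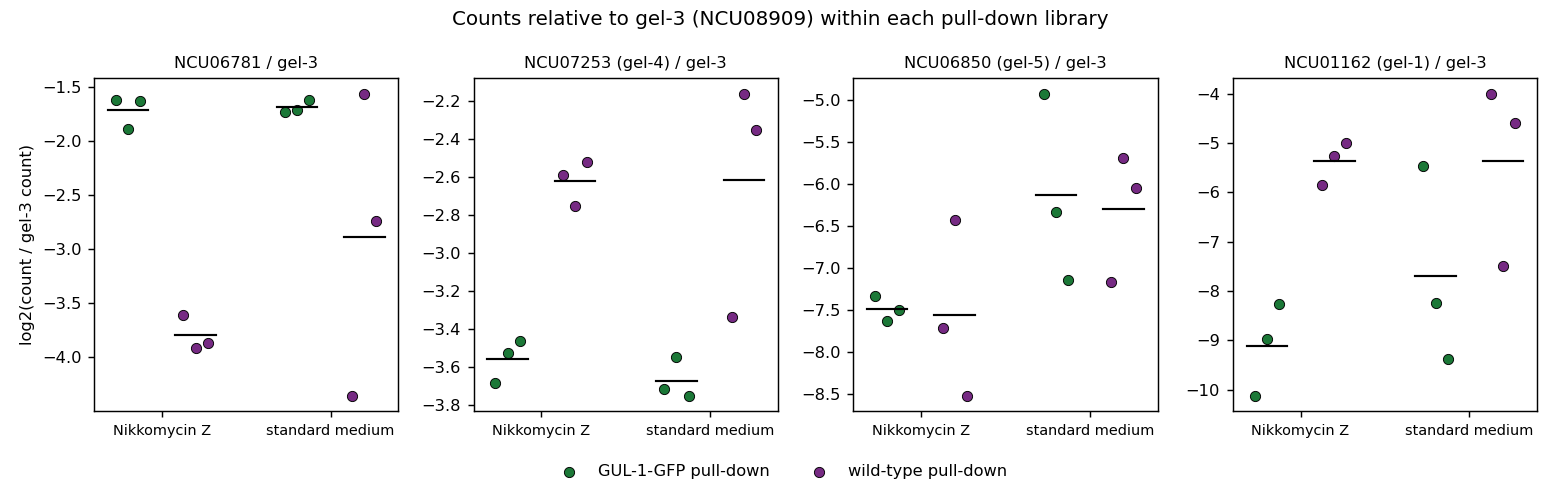
Counts of 4 GEL transcripts relative to gel-3 within each pull-down library, on a log2 scale, with 1 point per library and a line at the group mean, GUL-1-GFP at the left of the wild-type in each medium. The ratio of NCU06781 is -1.70 on average in GUL-1-GFP pull-downs and -3.34 in wild-type pull-downs, with 1 wild-type library of the standard medium at the GUL-1-GFP level.

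With Nikkomycin Z the order of levels within the family differed between the strains. In CPM per kilobase of annotated gene, introns included, gel-3 averaged 169 in GUL-1-GFP pull-downs with Nikkomycin Z, followed by NCU06781 with 51.9, gel-4 with 15.5, gel-5 with 0.877 and gel-1 with 0.259. In wild-type pull-downs with Nikkomycin Z the order was gel-3 with 26.9, gel-4 with 4.75, NCU06781 with 1.92, gel-1 with 0.526 and gel-5 with 0.164. The ranges of neighbouring members did not overlap in either of these orders. In standard medium the order of the means was the same for GUL-1-GFP. In the wild-type of that medium NCU06781 averaged 3.48 and gel-4 3.40, with replicate 2 included, and gel-1 was again above gel-5 on average. There the ranges of gel-5 and gel-1 overlapped in both strains, as did those of NCU06781 and gel-4 in the wild-type.

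Pull-downs were then compared with inputs, which asks whether the RNA on the beads differed from the extract it came from. In GUL-1-GFP 4 of 5 members were higher in the pull-down with Nikkomycin Z and 5 of 5 in standard medium, beside 18.8 and 18.2% of all features called higher and 0.45% called lower in each medium. The inputs were thin, and the median log2FC of all features was 3.69 with Nikkomycin Z and 3.32 in standard medium, so that a member near these values did not stand out from the bulk of the transcripts. With the libraries of the comparison alone 0 of 5 were called in standard medium, where 0 features were called in all. With protein-coding library sizes 2 of 5 were called with Nikkomycin Z (gel-3 and NCU06781) and 3 of 5 in standard medium (gel-4 besides). Without either of the GUL-1-GFP inputs of a medium, 3 of 5 were called in that medium, gel-3, NCU06781 and gel-4.

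gel-3 was at that level on the TMM scale. It had 78 and 133 counts in the GUL-1-GFP inputs with Nikkomycin Z (18.9 and 30.5 CPM) and 64 and 77 counts in those of standard medium (20.3 and 16.1 CPM). The log2FC of pull-down over input was 4.11 ± 0.77 and 3.75 ± 0.75 (adjusted p = 5.13e-04 and 0.00155, edgeR's quasi-likelihood test), above 52.2 and 51.4% of all features. With Nikkomycin Z its distance from the median of all features was 0.42 with TMM and -1.16 with protein-coding library sizes. For gel-4 this distance was -0.087 and -1.66, and for NCU06781 2.87 and 1.27. gel-4 had 15 and 10 counts in the inputs with Nikkomycin Z and 0 and 6 in those of standard medium. Its log2FC was 3.61 ± 0.75 and 4.75 ± 0.86 (adjusted p = 0.0015 and 5.92e-04), above 49.7 and 55.7% of all features. The value of standard medium rests on the 6 counts of replicate 2 of the input, and it ranged over 3.95 to 12.08 with 1 library left out. Without the 3 libraries that stood apart the log2FC in standard medium was 3.96 for gel-3, 4.88 for gel-4 and 14.20 for NCU06781, the last against inputs at 0, in a comparison whose median was then 2.43 over all features.

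NCU06781 lay further out. It had 10556, 2045 and 7903 counts in the pull-downs with Nikkomycin Z, against 4 and 8 counts in the inputs, a log2FC of 6.56 ± 1.05 (adjusted p = 1.11e-04, edgeR's quasi-likelihood test) that was above 75.1% of all features. In standard medium it had 4864, 1289 and 6499 counts in the pull-downs, against 0 in both inputs. Taking 3 counts per input library as the limit that a count of 0 allows, it was at least 97.6-fold higher in CPM in the pull-down. That bound holds on the TMM scale, where the median log2FC of all features was 3.32 in that medium. Of 10000 protein-coding counts NCU06781 averaged 15.3 in these pull-downs. A bound on that scale would be smaller and is not given.

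gel-5 and gel-1 had 0 counts in all 4 GUL-1-GFP inputs, which bounds their folds. gel-5, with 201, 38 and 135 counts in the pull-downs with Nikkomycin Z and 530, 52 and 141 in those of standard medium, was at least 3.44-fold higher with Nikkomycin Z and at least 4.37-fold higher in standard medium. gel-1, with 29, 15 and 80 counts and 364, 14 and 30 counts in the same order of media, was at least 1.18-fold and at least 1.99-fold higher. edgeR's quasi-likelihood test gave adjusted p of 0.0196 and 0.0139 for gel-5, and of 0.0914 and 0.0441 for gel-1. These bounds cover counting error only and hold on the TMM scale. Those of gel-5 lay below the median of all features, a log2FC of 3.69 with Nikkomycin Z and 3.32 in standard medium. Of 10000 protein-coding counts gel-5 averaged 0.332 with Nikkomycin Z and 0.769 in standard medium, and gel-1 0.120 and 0.380. On that scale 3 counts in the inputs give a higher mean limit in both media, so no bound was left for either. Each bound of gel-1 rests on 1 library. Without replicate 3 its pull-downs with Nikkomycin Z averaged 0.559 CPM, under the 0.707 CPM that the limit of 3 counts gives for the inputs, and without replicate 1 those of standard medium averaged 0.662 CPM, under 0.788 CPM, so that no bound was left. The 364 counts of gel-1 were those of replicate 1, the library rich in eas, and without the 3 libraries that stood apart gel-1 was no longer called.

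In the wild-type none of the 5 members passed the test of pull-down over input in either medium by edgeR, where 0% of all features were called higher with Nikkomycin Z and 0.45% in standard medium. At an unadjusted p under 0.05 there were 0 of 5 members with Nikkomycin Z and 2 of 5 in standard medium, beside 3.47 and 13.4% of all features. gel-3 had 1889, 1297 and 1847 counts in wild-type pull-downs with Nikkomycin Z, against 900, 1325 and 834 in the inputs, and a log2FC of 0.28 ± 0.57. In that medium the log2FC was 1.13 ± 0.68 for NCU06781, 1.17 ± 0.84 for gel-1, 0.15 ± 0.55 for gel-4 and -0.40 ± 0.88 for gel-5. With pull-down and input paired by number it was 1.14 for NCU06781 and 1.15 for gel-1, and neither passed. NCU06781 had 35, 491 and 366 counts in wild-type pull-downs of standard medium, against 16, 0 and 0 in the inputs, and a log2FC of 3.56 ± 0.90 (adjusted p = 0.061, edgeR's quasi-likelihood test). DESeq2 called this 1 member in standard medium and 0 with Nikkomycin Z. In edgeR it was called as well without replicate 1 of the wild-type input, without replicate 1 of either pull-down or without either GUL-1-GFP input, all of standard medium. Without the 3 libraries that stood apart the log2FC of NCU06781 was 2.12 (adjusted p = 0.270, edgeR's quasi-likelihood test).

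The test of the difference between the strains in pull-down over input passed for 4 of 5 members with Nikkomycin Z, all but gel-1, and for 1 of 5 in standard medium, NCU06781, beside 9.17 and 2.16% of all features with a positive difference and 0.112 and 0.0422% with a negative one. With Nikkomycin Z the interaction was 3.84 ± 0.90 for gel-3 and 5.43 ± 1.17 for NCU06781 on the log2 scale (adjusted p = 0.00834 and 0.00415, edgeR's quasi-likelihood test), against a median of 2.91 for all features. For gel-4 it was 3.45 ± 0.90 (adjusted p = 0.0161), above 52.6% of all features. With protein-coding library sizes no member passed in either medium, and the adjusted p with Nikkomycin Z was 0.323 for gel-3, 0.101 for NCU06781, 0.675 for gel-4 and 0.283 for gel-5 (edgeR's quasi-likelihood test). With a block that pairs pull-down and input by number gel-5 was no longer called with Nikkomycin Z (adjusted p = 0.134), and NCU06781 was no longer called in standard medium (adjusted p = 0.119, against 0.231 with the libraries of the comparison alone). Without the 3 libraries that stood apart gel-3, NCU06781 and gel-4 were called in both media, gel-3 with 3.72 in standard medium. The pull-downs left out were again the lowest GUL-1-GFP and the highest wild-type library of standard medium for each of these members. Without replicate 2 of the GUL-1-GFP input no member was called with Nikkomycin Z, without replicate 1 of the GUL-1-GFP pull-downs only NCU06781 was, and without replicate 3 of the GUL-1-GFP input, of the GUL-1-GFP pull-downs or of the wild-type pull-downs gel-3 and NCU06781 were. In standard medium none was called without replicate 1 of either input or without replicate 3 of either pull-down, and gel-3 was called as well without replicate 2 or 3 of the wild-type input.

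The comparison of Nikkomycin Z with standard medium passed the test in edgeR and in DESeq2 for 0 members in pull-downs of either strain. For GUL-1-GFP and wild-type pull-downs in this order, 0 and 0.0281% of all features were called higher and 0 and 0.0141% lower by edgeR. No member had an unadjusted p under 0.05 in these comparisons, beside 4.23 and 11.6% of all features. In the GUL-1-GFP pull-downs gel-3 averaged 428 ± 110 CPM with Nikkomycin Z and 244 ± 95.1 CPM in standard medium (SD, n = 3 each), and the libraries overlapped. Its log2FC of Nikkomycin Z over standard medium was 0.81, with a 95% interval from -0.35 to 1.97 that includes both no change and a rise of more than 1 on the log2 scale. NCU06781 averaged 133 ± 44.5 CPM with Nikkomycin Z and 76.9 ± 32.9 CPM in standard medium, and gel-4 averaged 36.0 ± 7.35 and 19.1 ± 7.05 CPM in the same order, with log2FC of 0.79 and 0.92. gel-5 and gel-1 had log2FC of -0.50 and -0.92. The 3 abundant members thus had positive values and the 2 scarce ones negative values, each within an interval that included 0. The sign of gel-1 rests on replicate 1 of standard medium, without which its log2FC was 0.25. Without the 3 libraries that stood apart the values were 0.45 for gel-3, 0.41 for NCU06781, 0.54 for gel-4, -0.28 for gel-5 and 0.26 for gel-1.

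In the wild-type pull-downs the log2FC of Nikkomycin Z over standard medium was 0.62 for gel-3, 0.48 for gel-4, -0.86 for NCU06781, -0.57 for gel-5 and 0.26 for gel-1. Of these signs 3 rest on replicate 2 of standard medium, without which NCU06781 had 0.43, gel-5 0.033 and gel-1 -0.22. Without the 3 libraries that stood apart gel-3 had 0.90 and gel-4 1.08. The interaction of treatment and strain in the pull-downs was 1.65 ± 0.94 for NCU06781 (adjusted p = 0.579, edgeR's quasi-likelihood test) and smaller in size for the other 4, and no member passed. For NCU06781 it was -0.083 without the 3 libraries that stood apart. The comparison of strains with Nikkomycin Z and that in standard medium were therefore not shown to differ for any member.

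In the wild-type inputs, which measure the transcripts themselves, gel-4 had 11.2, 10.5 and 7.99 CPM with Nikkomycin Z, against 3.45, 1.36 and 0 CPM in standard medium. The last of these is the library with 59 protein-coding counts. The log2FC was 2.07 ± 0.66 and did not pass edgeR's quasi-likelihood test (adjusted p = 0.110), where 0.928% of all features were called higher and 0.0703% lower. It passed with DESeq2. gel-3 had 50.2, 58.3 and 60.0 CPM with Nikkomycin Z, against 42.7, 17.1 and 0 CPM in standard medium, a log2FC of 1.25 ± 0.59 (adjusted p = 0.273). Without replicate 1 of the standard input, which held most of the counts of that group, gel-3, NCU06781 and gel-4 were all called higher. Without replicate 2 of that group, the input at 0 for eas, the log2FC was 1.68 for gel-4 and 1.02 for gel-3, and without the 3 libraries that stood apart it was 1.97 and 0.89. Between the strains, the inputs with Nikkomycin Z gave a log2FC of -1.19 ± 0.66 for gel-3 and -1.74 ± 0.70 for gel-4, in a comparison whose median was -3.20 over all features. Of all features 18.8% were called lower and 1.24% higher. No member passed (adjusted p = 0.192 and 0.0749, edgeR's quasi-likelihood test), and 3 of 5 had an unadjusted p under 0.05, beside 36.4% of all features. DESeq2 called 4 of 5 lower, all but NCU06781, and edgeR with the 2 groups alone called gel-3, gel-4 and gel-1 lower. The shares of all features called in these 2 settings are not given here. In the main model gel-3 lay above 61.2% and gel-4 above 56.3% of all features. gel-5 and gel-1, with GUL-1-GFP inputs at 0, lay above 25.8 and 21.1%.

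Markers of conidia and aerial hyphae moved with strain in these libraries. The summed level of the list of 5 such genes (con-6, con-8, con-10, con-13 and eas) was 0.729 to 1.93 CPM in GUL-1-GFP pull-downs with Nikkomycin Z, against 34.4 to 47.6 CPM in the wild-type pull-downs, and 0.696 to 31.4 CPM in GUL-1-GFP in standard medium, against 2.31 to 75.7 CPM in the wild-type. con-13 was at 0 in every library. In bulk samples, fewer cells of a type and less RNA per cell cannot be told apart. In standard medium gel-1 was high in the pull-downs in which eas was high. In GUL-1-GFP it had 3.37 CPM beside 19.5 CPM of eas in replicate 1, and 0.81 and 0.51 CPM beside 0.17 and 0.34 CPM of eas in the others. In the wild-type it had 2.52 and 1.45 CPM beside 61.5 and 39.2 CPM of eas, and 0.32 CPM in replicate 2, which had 0.36 CPM of eas. For gel-3, NCU06781 and gel-4 the opposite held for the pull-down that stood apart in each strain, though not in every case for the full order of the libraries. Replicate 1 of GUL-1-GFP, rich in eas, was the lowest of its group in each of the 3, and replicate 2 of the wild-type, poor in eas, was the highest of its group, as with gel-3 at 149 CPM beside 244 and 339 CPM in GUL-1-GFP, and at 57.5 CPM beside 40.2 and 35.1 CPM in the wild-type. gel-5 was the highest of its group in both of these libraries. The part of the marker difference in these results was not tested. With Nikkomycin Z eas was at 0.17 to 0.85 CPM in GUL-1-GFP pull-downs, against 17.0 to 28.3 CPM in wild-type pull-downs. In standard medium the log2FC of gel-1 turned to -1.54 without the 3 libraries that stood apart.

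**Figure D4:**
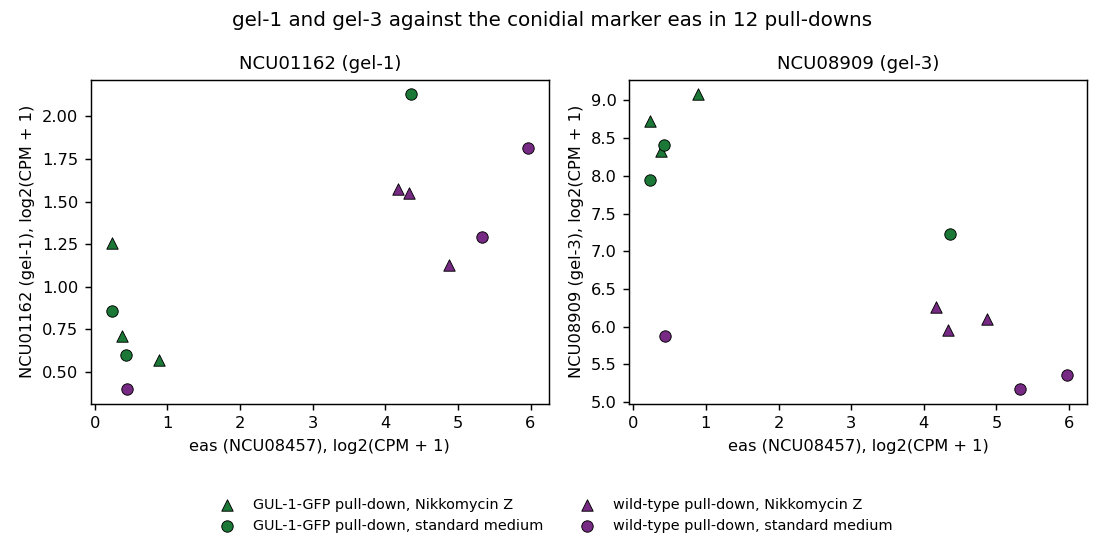
gel-1 (left) and gel-3 (right) against eas, a marker of conidia and aerial hyphae, in 12 pull-down libraries, both axes in log2(CPM + 1), with colours for strain and symbols for medium. The GUL-1-GFP pull-down with high eas and the wild-type pull-down with low eas depart from the rest of their strain in gel-1. In gel-3 they are the lowest GUL-1-GFP library and the highest wild-type library of standard medium, and every GUL-1-GFP library lies above every wild-type library.

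The transcripts whose pattern over the 12 pull-downs was most like each member were looked up by Pearson correlation of log2(CPM + 1) over 7009 features. The libraries fall into clusters by strain and share their scaling, so these values are a description. NCU03141 (lpl) and NCU07541 were nearest to gel-3 with 0.991 and 0.989, and NCU02637 and NCU09326 were nearest to NCU06781 with 0.996 and 0.991. NCU07277 (acw-8) and NCU09322 were nearest to gel-4 with 0.978 and 0.970, NCU07776 (acw-5) and NCU00340 (pp-1) to gel-5 with 0.979 and 0.969, and NCU00238 and NCU08949 to gel-1 with 0.920 each. acw-8 and acw-5 are named as anchored cell wall protein genes, and pp-1 encodes a transcription factor of the Ste12 type. Among the members themselves gel-3 and NCU06781 had a correlation of 0.95, gel-3 and gel-4 of 0.94, and gel-1 had negative values with the other 4, from -0.18 to -0.61.

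Beside the GEL family, a list of 14 genes for the synthesis and remodelling of the cell wall was counted in the pull-downs of both strains, and 13 of them were tested, chs-6 being at 0. With Nikkomycin Z 5 of 13 were higher in GUL-1-GFP and 0 were lower, and in standard medium 1 of 13 was higher, NCU05404 (ghx-2), with a log2FC of 6.32. Of all features 7.11% were called higher and 5.31% lower with Nikkomycin Z, and 2.59% higher and 0% lower in standard medium. With Nikkomycin Z the log2FC was 7.57 ± 0.92 for ghx-2, 3.14 ± 0.69 for chs-5 and 2.53 ± 0.60 for chs-7, the last pair being chitin synthase genes, and 2.69 ± 0.62 for ags-1, an α-1,3-glucan synthase gene. These values hold on the TMM scale. Of 10000 protein-coding counts ghx-2 averaged 944 against 20.7 in the wild-type, and chs-5 18.4 against 8.40. chs-7 averaged 9.21 against 6.49, and ags-1 8.035 against 5.09. The inputs of that medium averaged 26.8 against 14.3 CPM for chs-5 and 16.0 against 7.71 CPM for chs-7. Inputs of GUL-1-GFP were the lower ones for ags-1 (6.31 against 9.66 CPM) and ghx-2 (22.4 against 23.3 CPM). The median over the list was 0.28 with Nikkomycin Z and 0.53 in standard medium, against 2.48 and 2.41 over the 5 GEL transcripts. NCU06871 (fks-1), the catalytic subunit of β-1,3-glucan synthase, whose product the GEL enzymes act on, had a log2FC of 1.99 ± 0.79 with Nikkomycin Z and did not pass edgeR's quasi-likelihood test (adjusted p = 0.0988).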

How the data were processed

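The authors deposited raw counts per feature for 22 libraries in one table. Per the paper's methods, single-end reads were trimmed, aligned with Tophat and tallied on exons with HTSeq, whereas the submitters' processing notes name CASAVA 1.8.2, HISAT2 2.1.0 and StringTie 1.3.3b. The genome build is not given in the sources used here. The deposited counts hold the value 1 less often (862 times) than the value 5 (5340 times), so they may be rounded estimates. Symbols came from the NC12 annotation of RefSeq. Its gel numbers differ from those in product names of the paper's supplement, so members should be matched by their NCU numbers.

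Features were kept by filterByExpr (minimum count 10), scaled by TMM and fitted in 1 model of the 8 groups with edgeR 4.0.16 in R 4.3.3, tested by its quasi-likelihood test and adjusted by Benjamini-Hochberg over 7114 features. The procedure was tried on simulated data with the same mean profile for all 8 groups, apart from added changes, and the same dispersion for every feature. That simulation held neither the libraries that stand apart nor the shifts in composition, so it cannot speak to them, and its outcome is not reported here. Ratios were tested by exact permutation in Python 3.11.15 with numpy 2.4.6. Named were the 5 members, up to 4 cell wall genes with the smallest adjusted p with Nikkomycin Z, the 2 features most like each member and gul-1, together with fks-1, named after its value was seen. Members and lists were chosen with earlier results of these data known. A count of 0 allows up to 3 counts. Alternatives included DESeq2 1.42.0, other scalings, no filter, the replicate block and each library left out. Same-numbered libraries had residual correlations over 0.1 in every pair between wild-type pull-downs and inputs with Nikkomycin Z (0.155 to 0.190, 3 pairs) and between GUL-1-GFP pull-downs and inputs in standard medium (0.320 to 0.424, 2 pairs, too few to establish pairing).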

Additional observations from a re-analysis of the deposited data

Results flagged for a closer look

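The difference between pull-down and input differed between the strains for several GEL transcripts by the interaction term of edgeR. In standard medium NCU06781 passed, with an interaction of 10.48 on the log2 scale that rests on inputs at 0 and is no bound. It did not pass with pull-down and input paired by number, with protein-coding library sizes or with the libraries of the comparison alone. With Nikkomycin Z the test passed for NCU06850 (gel-5), also with inputs at 0 (9.46), for NCU06781 (5.43), for NCU08909 (gel-3, 3.84) and for NCU07253 (gel-4, 3.45). None of these passed with protein-coding library sizes, and gel-5 did not pass with pull-down and input paired by number.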

How the results depend on the processing

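Of 5 members tested, the count called higher in GUL-1-GFP over wild-type pull-down in standard medium was 0 with the libraries of the comparison alone, 0 with protein-coding counts as library sizes and 0 to 2 with 1 library left out. The same count was 2 to 4 with Nikkomycin Z and 3 to 4 with both media averaged when 1 library was left out. For GUL-1-GFP pull-down over input in standard medium it was 0 with the libraries of the comparison alone, 3 with protein-coding library sizes and 3 to 5 with 1 library left out, and with Nikkomycin Z it was 2 with protein-coding library sizes and 3 to 4. For wild-type pull-down over input in standard medium DESeq2, total counts as library sizes and no filter each called 1, and leaving out 1 library gave 0 to 1. The interaction of strain and fraction in standard medium called 3 with DESeq2, 4 with total counts, 0 with the libraries alone, 0 with protein-coding library sizes, 3 without the 3 libraries that stood apart and 0 to 2 with 1 library left out. With Nikkomycin Z it called 0 with protein-coding library sizes and 0 to 4. For Nikkomycin Z over standard medium in wild-type inputs DESeq2 called 1, and leaving out 1 library gave 0 to 3. GUL-1-GFP over wild-type input called 4 with DESeq2, 1 with total counts, 3 with the libraries alone and 0 to 1 with 1 library left out, all as lower. Leaving out 1 library gave 0 throughout for Nikkomycin Z in either pull-down, the treatment interaction and wild-type pull-down over input with Nikkomycin Z. Of the 10 features named for likeness, 4 were the same with protein-coding library sizes. Except where stated, shares of all features called under these alternatives are not given, so the counts do not set the members against the other features. Causes were not tested.

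The sign of some log2FC turned. NCU07253 (gel-4) had -0.31 in standard medium and -0.32 with Nikkomycin Z with protein-coding library sizes. NCU01162 (gel-1) in standard medium had -0.17 with DESeq2, -1.24 with protein-coding library sizes, -1.54 without the 3 libraries and -1.07 to 0.81 with 1 library left out, and with Nikkomycin Z it had 0.0043 with total counts. For Nikkomycin Z over standard medium, gel-1 had 0.26 without the 3 libraries in GUL-1-GFP pull-downs and -1.42 to 0.25 with 1 library left out, and in wild-type pull-downs it had -0.18 with total counts and -0.18 without the 3 libraries. In the same pull-downs NCU06781 had 0.50 and NCU06850 (gel-5) 0.066 without the 3 libraries. With 1 library left out, NCU06781 ranged over -1.33 to 0.43, gel-5 over -1.39 to 0.033 and gel-1 over -0.22 to 0.89. In wild-type inputs, with 1 library left out, gel-5 ranged over -0.98 to 7.02 and gel-1 over -1.43 to 7.40. The ratio of gel-5 to gel-3 turned to -0.033 without the 2 pull-down libraries that stood apart.

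With the replicate number as a block, 2 of 5 members were called between the pull-downs of the strains in standard medium and 4 with Nikkomycin Z. A block that pairs pull-down and input by number left the interaction with 0 calls in standard medium and 3 with Nikkomycin Z. The block changed no other count by more than 1.5 times. Shares of all features called with a block are likewise not given. Depth limits gel-5 and gel-1 most, with 0 counts in the GUL-1-GFP inputs.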
